A study of Mus musculus with 18 samples.

Results

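The lymphoid homing and thymic egress receptors described here are 6 genes, Ccr7, S1pr1, Gpr183, Cxcr4, Ccr9 and Cxcr5, of 19752 genes measured in regulatory T cells (Tregs, the T cells that carry Foxp3 and restrain immune responses). The genes were chosen by name, and each was read by 1 probe set annotated to it alone. RNA of sorted Tregs was hybridised to 18 Affymetrix Mouse Gene 1.0 ST arrays, which fall into 6 groups of 3. All mice had the NOD background, a strain known for autoimmune diabetes. The 4 spleen groups came from females aged 60 days that carried Foxp3-eGFP-Cre-ERT2 and Rosa26-YFP. In these mice a cell that expresses Foxp3 while tamoxifen is present can switch on YFP for good, and its descendants keep it. Tamoxifen was injected intraperitoneally 4 times, for the perinate treatment between days 0 and 10 and for the adult treatment between days 35 and 45. Double-sorted GFP+ YFP+ cells are called tagged and GFP+ YFP- cells untagged, and a FACSAria was used for both. The untagged cells are the remaining Tregs of the same treatments and can include cells that expressed Foxp3 during treatment without recombining. The 2 thymus groups were CD4+ GFP+ cells of males aged 4 days (perinate) or 5 weeks (adult), sorted on a MoFlo. No tamoxifen treatment is recorded here for the thymus groups. Tissue, sex, sorter, age and recorded tamoxifen treatment therefore cannot be told apart between spleen and thymus. The labels do not say if a replicate is its own animal or a pool; the p-values below reflect the spread of these samples alone, which may be technical. A further arm with chimeric mice was not analysed here.

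All 6 genes encode G protein-coupled receptors that steer lymphocytes along gradients of chemokines or lipids. CCR7 guides T cells into lymph nodes and T cell zones, CXCR5 guides cells into B cell follicles, and GPR183 senses oxysterols at the edges of those zones. S1PR1 draws T cells out of the thymus and lymph nodes toward sphingosine 1-phosphate in blood and lymph, while CXCR4 is known for retention in the thymus and bone marrow, and CCR9 for guidance within the thymus and to the small intestine.

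Of the 6 genes, 3 had an entry in the RefSeq promoter table (GRCm38.p6): Ccr9, Gpr183 and Cxcr4. Their promoters are shown for reference beside the values below. Each line gives the 250 bases before the annotated start, 5′ to 3′ on the gene's strand. The windows are chr9:123766961-123767210 on the plus strand for Ccr9, chr14:121965194-121965443 on the minus strand for Gpr183 and chr1:128592300-128592549 on the minus strand for Cxcr4. Capitals mark matches to CACCC, the core letters bound by KLF factors such as KLF2, and to CAGGTG, a site type of E proteins.
Ccr9: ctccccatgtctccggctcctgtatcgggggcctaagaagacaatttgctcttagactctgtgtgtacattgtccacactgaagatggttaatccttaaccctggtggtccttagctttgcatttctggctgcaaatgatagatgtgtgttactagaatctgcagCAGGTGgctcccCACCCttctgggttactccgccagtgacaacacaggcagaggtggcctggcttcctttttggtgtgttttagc
Gpr183: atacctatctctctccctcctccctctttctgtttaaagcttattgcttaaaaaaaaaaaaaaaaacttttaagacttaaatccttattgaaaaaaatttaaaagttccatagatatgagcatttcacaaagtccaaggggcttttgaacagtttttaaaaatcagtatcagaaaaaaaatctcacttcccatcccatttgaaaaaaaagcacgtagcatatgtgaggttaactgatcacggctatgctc
Cxcr4: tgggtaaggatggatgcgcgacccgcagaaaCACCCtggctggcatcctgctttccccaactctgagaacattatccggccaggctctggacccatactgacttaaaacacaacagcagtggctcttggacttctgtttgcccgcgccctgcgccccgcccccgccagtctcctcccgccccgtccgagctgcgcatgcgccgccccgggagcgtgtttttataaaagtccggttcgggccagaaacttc
In Ccr9 the E protein letters lay at -85 to -80 and the KLF letters at -73 to -69, counted from the start, without overlap. In Cxcr4 the KLF letters lay at -219 to -215. Neither motif was found in the Gpr183 window. The motif GTAAACA of FOXO factors was found in none of the 3. Both strands were searched. Of 32851 promoters of this length, 52.0% held CACCC, 17.2% held CAGGTG and 3.17% held GTAAACA.

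The deposited intensities were converted to log2, so a difference of 1 is a 2-fold change in intensity. Foxp3 read between 11.88 and 12.40 on all 18 arrays, while Ctla4 ranged from 10.29 to 11.94 on the spleen arrays. Of 7 Treg markers tested between perinate-tagged and adult-tagged cells, 0 were higher and 1 was lower. The lower one was Il2ra (-0.39, limma adjusted p = 0.0416), a call lost with arrays centred on their medians (adjusted p = 0.117). The array labelled perinate-tagged replicate 2, from a female per its label, read 9.79 for the Y-linked gene Eif2s3y, against 3.95 to 4.90 on the other 11 spleen arrays. Its Xist level was 8.38, against 11.86 to 12.41 on those arrays. The thymus arrays, from males, read 9.73 to 10.04 for Eif2s3y and 5.70 to 6.30 for Xist. Its Xist level thus lay between those of the sexes. The array goes against its label in this respect, so the called differences of the receptors, their neighbouring steps and the list counts that rest on it are also given without it. For the receptors without a call in the tagged comparison, leaving it out gave -0.06 ± 0.15 for S1pr1, 0.21 ± 0.16 for Gpr183, -0.44 ± 0.25 for Cxcr4 and -0.09 ± 0.60 for Ccr9, and none passed. The untagged replicate 3 arrays of both treatments stood apart from their groups together: their deviations from the group means correlated at r = 0.622 across genes. They correlated at -0.27 to -0.63 with the deviations of untagged replicates 4 and 5 of the other treatment. Deviations within a group cancel out, so negative values of this kind follow from the positive correlation. Adult thymus replicate 2 differed from the rest in its spread. Its interquartile range was 2.08 on the log2 scale, against 2.49 to 3.12 on the other arrays. Its median linear intensity was 152.3, against 118.8 to 137.7. It was the lowest adult thymus sample for all 6 receptors. In RNA from sorted populations, fewer cells of a type and less RNA per cell cannot be told apart.

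Perinate-tagged spleen Tregs stood out by low Ccr7 and high Cxcr5: their Ccr7 lay below, and their Cxcr5 above, the level on every one of the other 15 arrays. Cxcr4 was lowest in perinate thymus Tregs, 3.22-fold below adult thymus Tregs. Ccr9 was 5.44-fold higher in thymus than in untagged spleen Tregs, while Gpr183, Cxcr4 and S1pr1 were lower there. S1pr1, the egress receptor, did not pass the test in any comparison within a tissue, and neither did Gpr183.

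**Figure D1:**
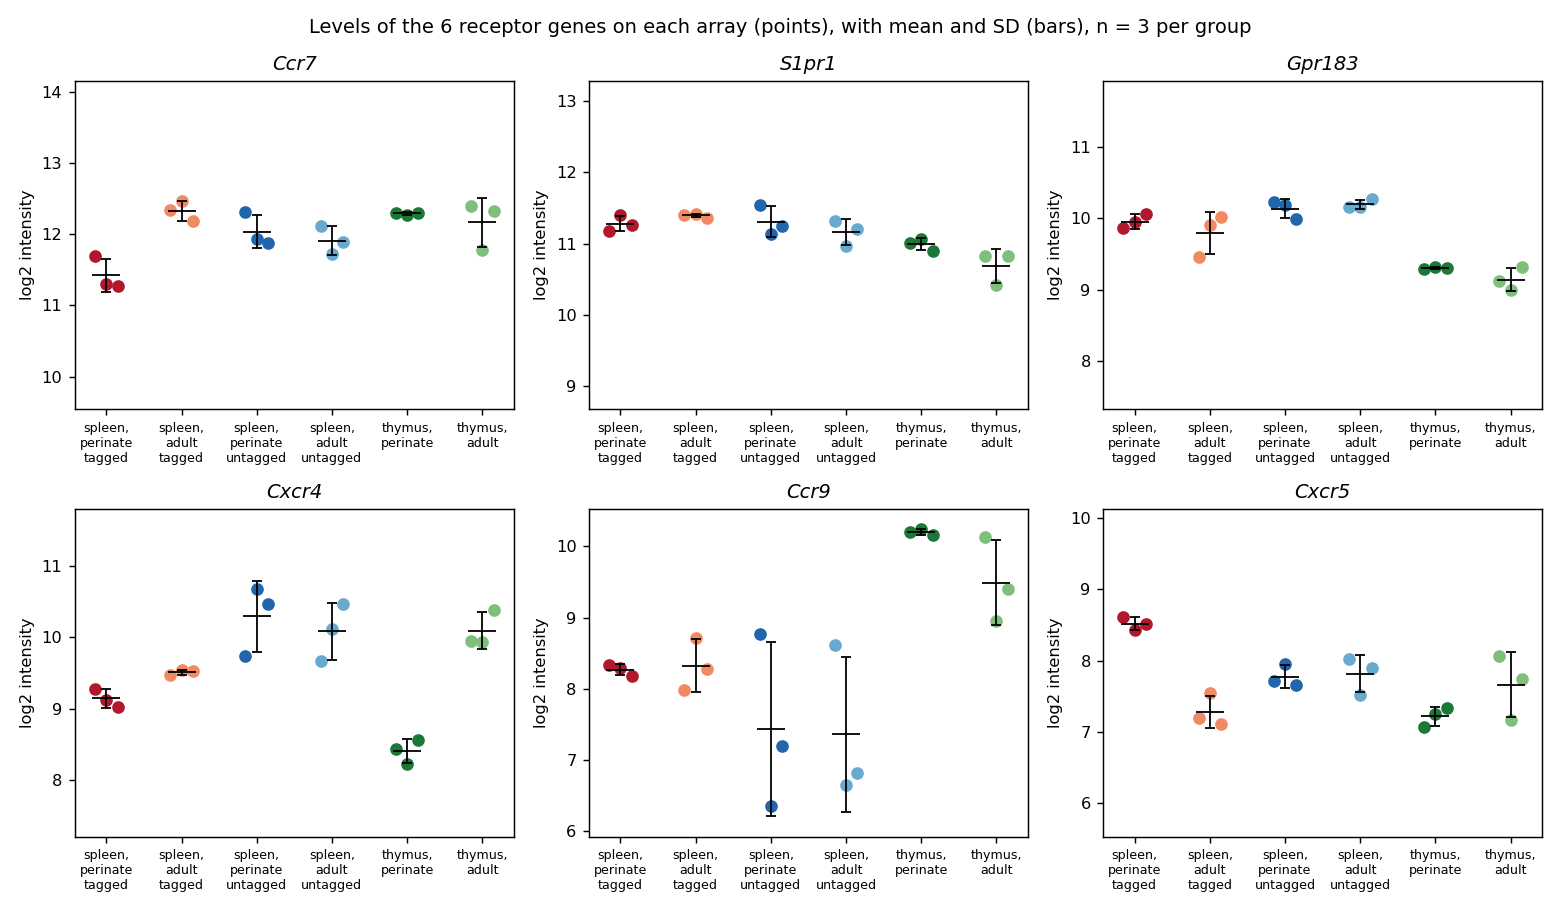
Levels of the 6 receptor genes, 1 panel per gene, with 1 point per array on a log2 intensity axis, and the mean and SD (bars) of each group of 3. Perinate-tagged spleen samples sit lowest for Ccr7 (11.27 to 11.69) and highest for Cxcr5 (8.43 to 8.61), perinate thymus samples sit lowest for Cxcr4 (8.22 to 8.56), and both thymus groups sit above all spleen samples for Ccr9. The axes of the panels differ in position, not in meaning, and levels of different genes are not comparable.

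The tests used limma on all genes that passed a filter on dim genes, with Benjamini-Hochberg adjustment over those genes and a threshold of 0.05. Differences are given on the log2 scale as perinate minus adult, tagged minus untagged or thymus minus spleen, with their standard errors (n = 3 per group). Between perinate-tagged and adult-tagged spleen Tregs, 2 of the 6 receptors passed, against 19.5% of all genes tested. Between the untagged cells of the 2 treatments, 0 of 6 passed in limma, and 0% of all genes did. The number of genes with an unadjusted p under 0.05 there was 380 of 10350. With the replicate number as a block, 49 genes passed in these 2 groups, none of them among the 6. The difference between these 2 differences (an interaction) passed for 2 of 6, against 4.89% of all genes. Tagged and untagged cells differed in 3 of 6 after perinate treatment (7.34% of all genes) and in 0 of 6 after adult treatment (0.271%). In adult treatment 4 of the 6 had an unadjusted p between 0.00355 and 0.02, and 1699 genes had one under 0.05. Perinate and adult thymus differed in 1 of 6 (24.3%), and thymus and untagged spleen in 4 of 6 (30.5%). The share of receptors called in the thymus comparison lay below the share of all genes called. These comparisons share samples and are not independent of each other.

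**Figure D2:**
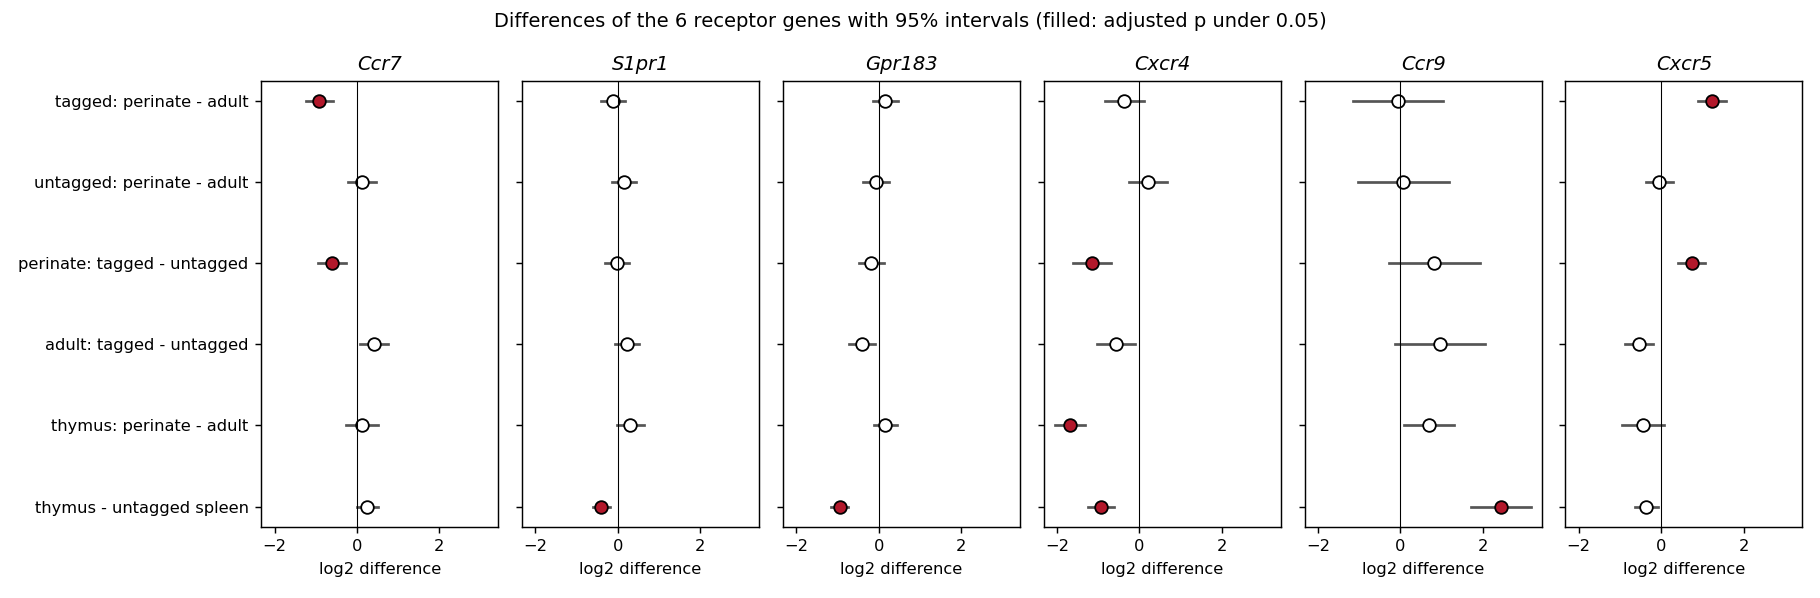
Log2 differences (points) of each receptor in 6 comparisons, with 95% confidence intervals from the limma fit, filled where the adjusted p was under 0.05. Ccr7 and Cxcr5 move in opposite directions in the tagged comparison (-0.91 and 1.24), Cxcr4 has its largest difference in the thymus (-1.69), and no receptor is filled for the untagged cells.

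Ccr7 encodes the receptor for CCL19 and CCL21 that admits T cells to lymph nodes. It read 11.69, 11.30 and 11.27 in the perinate-tagged samples and 12.34, 12.46 and 12.18 in the adult-tagged samples. The untagged samples read 12.31, 11.93 and 11.87 after perinate treatment and 12.12, 11.72 and 11.89 after adult treatment. The thymus samples read 12.29, 12.27 and 12.30 in perinates and 12.40, 11.77 and 12.33 in adults. The perinate-tagged samples were the only spleen group whose values did not overlap any other group, and adult-tagged samples lay at the top of the spleen range. Ccr7 was 1.88-fold lower in perinate-tagged than in adult-tagged cells (-0.91 ± 0.16, limma adjusted p = 0.00123). Without perinate-tagged replicate 2 the difference was -1.04 ± 0.17 (adjusted p = 0.000765). In the untagged cells the difference was 0.13 ± 0.16, with a 95% interval from -0.21 to 0.47.

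The tagged difference of Ccr7 differed from the untagged one by -1.04 ± 0.22 (limma adjusted p = 0.0144). Without perinate-tagged replicate 2 this was -1.17 ± 0.22 (adjusted p = 0.00686). With the replicate number as a block over the 12 spleen arrays it was -0.79 ± 0.20 and missed the threshold (adjusted p = 0.0518). Against the untagged cells of the same treatment, perinate-tagged cells had 1.53-fold less Ccr7 (-0.62 ± 0.16, limma adjusted p = 0.03), and the value without replicate 2 was -0.75 ± 0.17 (adjusted p = 0.015). This call was lost with arrays centred on their medians (adjusted p = 0.0509) and with no filter (adjusted p = 0.0524). It was also lost on leaving out perinate-tagged replicate 4 (-0.56, adjusted p = 0.129) or 5 (-0.54, adjusted p = 0.137), or untagged replicate 3 (-0.48, adjusted p = 0.0773) or 4 (-0.67, adjusted p = 0.0571). Adult-tagged cells lay 0.42 ± 0.16 above their untagged counterparts, which did not pass after adjustment (limma adjusted p = 0.232). The thymus groups overlapped in Ccr7 and differed by 0.12 ± 0.17 (adjusted p = 0.591), and that sign turned with quantile normalization (-0.17).

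Cxcr5 encodes the receptor for CXCL13 that leads cells into B cell follicles and is carried by follicular Tregs. It read 8.61, 8.43 and 8.52 in the perinate-tagged samples and 7.19, 7.54 and 7.11 in the adult-tagged samples. The untagged samples read 7.71, 7.95 and 7.66 after perinate treatment and 8.03, 7.52 and 7.90 after adult treatment. The thymus samples read 7.07, 7.25 and 7.33 in perinates and 8.07, 7.17 and 7.74 in adults. The 3 perinate-tagged samples were the highest of the series, while the adult-tagged and perinate thymus samples lay between 7.07 and 7.54, a range they shared with adult thymus replicate 2 and adult untagged replicate 4. Cxcr5 was 2.36-fold higher in perinate-tagged than in adult-tagged cells (1.24 ± 0.15, limma adjusted p = 7.2e-05). Without perinate-tagged replicate 2 the difference was 1.19 ± 0.18 (adjusted p = 0.000476). The untagged difference was -0.04 ± 0.15, with a 95% interval from -0.37 to 0.29.

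The tagged and untagged differences of Cxcr5 differed by 1.28 ± 0.22 (limma adjusted p = 0.00283), and by 1.23 ± 0.24 without perinate-tagged replicate 2 (adjusted p = 0.00733). Perinate-tagged cells had 1.67-fold more Cxcr5 than untagged cells of the same treatment (0.74 ± 0.15, limma adjusted p = 0.00963). That value was 0.70 ± 0.18 without perinate-tagged replicate 2 (adjusted p = 0.032), and it missed the threshold without untagged replicate 5 (0.69, adjusted p = 0.0503). Adult-tagged cells lay on the other side of their untagged counterparts, by -0.54 ± 0.15, without passing the test (limma adjusted p = 0.14). In the thymus the perinate samples read lower on average (-0.44 ± 0.22, adjusted p = 0.151), and the groups overlapped through adult replicate 2. Without that array the difference was -0.69 ± 0.12 (adjusted p = 0.00149), and 4199 of 10371 genes were called, against 2589 of 10650 with it. The spleen and thymus differences of Cxcr5 differed from each other by 1.68 ± 0.27 (limma adjusted p = 0.000605), one of 3 receptors for which this was so, against 6.46% of all genes. Without perinate-tagged replicate 2 that value was 1.63 ± 0.29 (adjusted p = 0.00199).

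Cxcr4 encodes the receptor for CXCL12. In the thymus it read 8.44, 8.22 and 8.56 in perinates and 9.95, 9.94 and 10.39 in adults. The tagged spleen samples read 9.28, 9.12 and 9.03 after perinate treatment and 9.47, 9.54 and 9.53 after adult treatment. The untagged samples read 9.73, 10.68 and 10.46 after perinate treatment and 9.67, 10.12 and 10.47 after adult treatment. The groups formed steps without overlap, from perinate thymus at the bottom through perinate-tagged and adult-tagged spleen to the untagged and adult thymus samples, which shared the top. Perinate thymus Tregs had 3.22-fold less Cxcr4 than adult thymus Tregs (-1.69 ± 0.16, limma adjusted p = 0.000731). Leaving out 1 thymus array at a time gave -1.76 to -1.54. Perinate-tagged cells had 2.22-fold less than untagged cells of the same treatment (-1.15 ± 0.22, limma adjusted p = 0.00538), and -1.22 ± 0.25 without perinate-tagged replicate 2 (adjusted p = 0.0106).

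The step from perinate-tagged to adult-tagged cells in Cxcr4 (-0.37 ± 0.22) did not pass (limma adjusted p = 0.245), although the samples did not overlap. The spread of the untagged groups enters that error, and a fit of the 2 tagged groups alone gave an adjusted p of 0.0224. Calls rose over all genes in that fit, to 3371 of 10167, against 2020 of 10350 in the main fit. Adult-tagged cells lay 0.57 ± 0.22 below their untagged counterparts (limma adjusted p = 0.234). The difference passed without adult untagged replicate 3, the lowest of its group (-0.78 ± 0.22, limma adjusted p = 0.0415). Without that array 774 genes were called, against 28 with all arrays. The spleen tagged and thymus differences of Cxcr4 differed by 1.32 ± 0.30 (limma adjusted p = 0.0118), and by 1.25 ± 0.33 without perinate-tagged replicate 2 (adjusted p = 0.03). For Ccr7 the same contrast was -1.03 ± 0.24 (adjusted p = 0.0131), and -1.17 ± 0.24 without that array (adjusted p = 0.00716).

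Ccr9 encodes the receptor for CCL25. The thymus samples read 10.20, 10.24 and 10.16 in perinates and 10.13, 8.95 and 9.40 in adults. The tagged spleen samples read 8.33, 8.29 and 8.18 after perinate treatment and 7.98, 8.72 and 8.28 after adult treatment. The untagged samples read 8.77, 6.36 and 7.19 after perinate treatment and 8.61, 6.65 and 6.83 after adult treatment. All 6 thymus samples lay above all 12 spleen samples, and in both untagged groups replicate 3 read far above replicates 4 and 5. Ccr9 was 5.44-fold higher in thymus than in untagged spleen Tregs (2.44 ± 0.34, limma adjusted p = 3.66e-05). Perinate thymus samples lay just above the adult ones (0.71 ± 0.26, adjusted p = 0.0793). The difference passed without adult thymus replicate 1 (1.03 ± 0.16, limma adjusted p = 0.00473), where 4388 of 10924 genes were called, against 2589 of 10650 with it. In the tagged comparison the difference of Ccr9 was -0.06 ± 0.51, and its 95% interval, from -1.16 to 1.04, leaves changes of about 2-fold either way undetectable with these samples.

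Tagged cells read higher in Ccr9 than untagged cells on average in both treatments (0.83 ± 0.51 and 0.96 ± 0.51, limma adjusted p = 0.363 and 0.356). Without both untagged replicate 3 arrays, an alternative chosen after seeing the data, these differences were 1.49 ± 0.22 (adjusted p = 0.000323) and 1.59 ± 0.22 (adjusted p = 0.000157). Those arrays had the highest Ccr9 and the lowest Cxcr4 of the untagged samples, so larger differences were fixed in advance. Each untagged group then held 2 arrays. Over all genes, 1599 and 1450 passed after perinate and adult treatment, against 760 and 28 with all arrays. The same alternative gave Cxcr4 differences of -1.43 ± 0.14 (adjusted p = 1.13e-05) and -0.78 ± 0.14 (adjusted p = 0.00173). It gave 2 further values for Ccr7, -0.48 ± 0.15 after perinate treatment (adjusted p = 0.0425) and 0.52 ± 0.15 after adult treatment (adjusted p = 0.0306). In the thymus against untagged spleen contrast this alternative moved Ccr9 to 3.09 ± 0.20 (limma adjusted p = 5.26e-09). There Ccr7 passed as well, at 0.37 ± 0.12 (limma adjusted p = 0.0252), and 3826 genes were called against 3318 with all arrays. The left-out arrays also had the highest Ccr7 of the untagged samples. The direction in which each Ccr7 difference moved was therefore fixed in advance, smaller after perinate treatment and larger in the other contrasts.

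S1pr1 encodes the receptor that lets T cells leave the thymus and lymph nodes. It read 11.18, 11.40 and 11.27 in the perinate-tagged samples and 11.40, 11.42 and 11.36 in the adult-tagged samples. The untagged samples read 11.54, 11.13 and 11.25 after perinate treatment and 11.32, 10.97 and 11.21 after adult treatment. The thymus samples read 11.01, 11.07 and 10.90 in perinates and 10.82, 10.42 and 10.83 in adults. The spleen groups overlapped one another, and thymus samples lay at or below the low end of the spleen range. S1pr1 was 1.32-fold lower in thymus than in untagged spleen (-0.40 ± 0.10, limma adjusted p = 0.00502). Perinate thymus lay 0.31 ± 0.14 above adult thymus without overlap, which did not pass (adjusted p = 0.138). Leaving out 1 thymus array at a time gave 0.17 to 0.37. The tagged difference was -0.11 ± 0.13 (adjusted p = 0.581), with a 95% interval from -0.40 to 0.17, so a 2-fold change between the tagged groups lies outside the interval.

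Gpr183 encodes the oxysterol receptor also known as EBI2. It read 9.86, 9.94 and 10.06 in the perinate-tagged samples and 9.47, 9.91 and 10.02 in the adult-tagged samples. The untagged samples read 10.24, 10.18 and 9.99 after perinate treatment and 10.16, 10.17 and 10.27 after adult treatment. The thymus samples read 9.29, 9.32 and 9.30 in perinates and 9.12, 8.996 and 9.32 in adults. Every thymus sample lay below every spleen sample, and within each tissue the groups were close together. Gpr183 was 1.93-fold lower in thymus than in untagged spleen (-0.94 ± 0.10, limma adjusted p = 8.93e-07). Its tagged difference was 0.16 ± 0.14 (adjusted p = 0.452, 95% interval -0.15 to 0.47), and the thymus difference was 0.16 ± 0.12 (adjusted p = 0.322). Both of these signs turned with quantile normalization (-0.01 and -0.09). Adult-tagged cells lay 0.40 ± 0.14 below their untagged counterparts (limma adjusted p = 0.208).

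The thymus against untagged spleen contrast averages both ages, and for Cxcr4 the ages differed. Cxcr4 was 0.94 ± 0.15 lower in thymus by that contrast (limma adjusted p = 0.000134). Perinate thymus Tregs lay 1.89 ± 0.21 below the untagged cells of the perinate treatment (adjusted p = 3.79e-06, fit of all 18 arrays, in which 22.9% of all genes were called for this pair). Adult thymus Tregs and untagged cells of the adult treatment had means of 10.09 and 10.08 and were adjacent in the order of levels (adjusted p = 0.98). Cxcr5 missed the threshold in the same contrast (-0.36 ± 0.13, limma adjusted p = 0.0501), and Ccr7 lay 0.26 ± 0.12 higher in thymus (adjusted p = 0.117). Those 2 calls depended on the processing: Cxcr5 passed with quantile normalization (-0.42, adjusted p = 0.0437) and median centring (-0.43, adjusted p = 0.041), and Ccr7 with quantile normalization (0.35, adjusted p = 0.0189).

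When the 6 groups were ordered by their mean for each receptor, 3 of the 30 neighbouring pairs differed by limma in the fit of all 18 arrays. Gpr183 ran from untagged adult treatment (10.20) through untagged perinate treatment, perinate-tagged and adult-tagged (9.80) to perinate thymus (9.30) and adult thymus (9.14). Its only step past the threshold was that between adult-tagged spleen and perinate thymus (0.49 ± 0.14, adjusted p = 0.0111), a pair in which 28.2% of all genes were called. Cxcr4 ran from untagged perinate treatment (10.29) through adult thymus, untagged adult treatment, adult-tagged (9.51) and perinate-tagged (9.14) to perinate thymus (8.41). Its last step passed (0.74 ± 0.21, adjusted p = 0.0205; 19% of all genes), but not without perinate-tagged replicate 2 (0.67 ± 0.24, adjusted p = 0.0746). Cxcr5 ran from perinate-tagged (8.52) through untagged adult treatment (7.82), untagged perinate treatment, adult thymus and adult-tagged (7.28) to perinate thymus (7.22), and its first step passed (0.70 ± 0.19, adjusted p = 0.0244; 9.72% of all genes), but likewise not without that array (0.66 ± 0.22, adjusted p = 0.066).

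For the other 3 receptors no pair of neighbours passed that test with all arrays. Ccr7 ran from adult-tagged (12.33) through perinate thymus (12.29), adult thymus (12.17), untagged perinate treatment (12.04) and untagged adult treatment (11.91) to perinate-tagged (11.42), and its last step missed the threshold (0.49 ± 0.17, adjusted p = 0.0767) and passed it without perinate-tagged replicate 2 (0.62 ± 0.18, adjusted p = 0.0398). Ccr9 ran from perinate thymus (10.20) through adult thymus (9.49), adult-tagged (8.33), perinate-tagged (8.27) and untagged perinate treatment (7.44) to untagged adult treatment (7.36). S1pr1 ran from adult-tagged (11.39) through untagged perinate treatment (11.31), perinate-tagged (11.28) and untagged adult treatment (11.16) to perinate thymus (10.99) and adult thymus (10.69). Over all 15 pairs of groups, 8 differed for Gpr183, 8 for Cxcr4, 7 for Cxcr5, 6 for Ccr9, 5 for S1pr1 and 4 for Ccr7, against 17.4% of all gene and pair combinations. All 4 pairs called for Ccr7 had the perinate-tagged group as their lower member.

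Other genes of migration were counted from lists, which are described by counts and medians only. Of 25 other chemoattractant receptors, 17 were tested in the tagged comparison, and 10 were higher and 1 lower in perinate-tagged cells, with a median of 1.09 against 0.12 for all genes tested. The largest differences were those of Cxcr6 (2.59 ± 0.30, limma adjusted p = 3.45e-05), Ccr3 (2.10 ± 0.21), Ccr2 (2.00 ± 0.15) and Ccrl2 (2.00 ± 0.31). CXCR6 and CCR2 are known for guiding cells to tissues and inflamed sites. In the thymus 8 of 16 tested were lower in perinates and 0 higher, where 5.84% of all genes were lower and 18.5% higher. The 8 were led by Cxcr3 (-2.73 ± 0.17), Ccr2 (-2.17 ± 0.16), Cxcr6 (-1.97 ± 0.26) and Ccr4 (-1.73 ± 0.30). The list median was -0.61 against 0.17 for all genes. Of the adhesion list, 4 of 13 tested were higher in perinate-tagged cells and 0 lower, with a median of 0.30, where 16% of all genes were called higher and 3.5% lower. Among them were Gcnt1 (1.41 ± 0.24) and Fut7 (0.89 ± 0.12), which build selectin ligands, and the integrin chains Itgb1 (1.04 ± 0.23) and Itgal (0.43 ± 0.14). With quantile normalization the adhesion list gave 3 higher and 1 lower, and without perinate-tagged replicate 2 it gave 3 higher and 0 lower, the call of Itgal being lost in both. The receptor list gave 10 higher and 2 lower without that array.

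Regulators of homing genes were called in both directions, where 16% of all genes were called higher and 3.5% lower. Of 18 tested, 2 were higher in perinate-tagged cells, Prdm1 (1.23 ± 0.41, limma adjusted p = 0.0494) and Gata3 (0.74 ± 0.17), and 2 were lower, Bach2 (-0.97 ± 0.22) and Foxp1 (-0.71 ± 0.14). Prdm1 did not pass with quantile normalization (1.11, adjusted p = 0.083), where the list had 1 higher and 3 lower, or without perinate-tagged replicate 2 (1.22, adjusted p = 0.0881), where it had 2 and 2. The list median was 0.11, close to that of all genes. Klf2, whose product is known to activate S1pr1, did not pass in that comparison (0.21 ± 0.15, adjusted p = 0.346) and neither did Foxo1, whose product is known to act on Ccr7 and Klf2 (-0.26 ± 0.17, adjusted p = 0.3). Against untagged cells of the same treatment, 0 of the 18 were higher in perinate-tagged cells and 1 was lower, where 7.34% of all genes were called. In perinate thymus Prdm1 (-2.28 ± 0.13) and Id2 (-1.76 ± 0.20) were lower and Foxo1 was higher (0.66 ± 0.17, limma adjusted p = 0.027). Klf2, at 0.83 ± 0.32, did not pass there (adjusted p = 0.0853).

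The follicular Treg list, without Cxcr5, had 7 genes tested. In perinate-tagged cells 4 were higher, Tox2 (1.83 ± 0.36, limma adjusted p = 0.0028), Icos (1.44 ± 0.20), Pdcd1 (1.03 ± 0.32) and Sh2d1a (0.88 ± 0.19), and Btla was lower (-0.46 ± 0.14). All 5 passed without perinate-tagged replicate 2, but Pdcd1 did not with quantile normalization (0.83, adjusted p = 0.0867), nor Btla with median centring (-0.38, adjusted p = 0.0838). Bcl6, the factor that defines follicular T cells, did not pass (0.41 ± 0.18, adjusted p = 0.109). Icos, Pdcd1 and Tox2 are also known from activated T cells outside follicles. Of all genes, 16% were called higher and 3.5% lower in the tagged comparison. Against untagged cells of the same treatment, 0 of the 7 passed for perinate-tagged cells (median 0.10) and 0 for adult-tagged cells (median -0.90). Tox2 averaged 9.80 in perinate-tagged, 9.46 in both untagged groups and 7.97 in adult-tagged samples. Pdcd1 averaged 10.28, then 10.40 (perinate) and 10.15 (adult) untagged, and 9.25. In perinate against adult thymus 4 of the 7 were lower and 0 higher (5.84% and 18.5% of all genes), led by Il1r2 (-2.25 ± 0.14) and Icos (-1.54 ± 0.11).

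Downstream of the receptors, 5 of 21 tested genes of G protein signalling and desensitisation were higher in perinate-tagged cells and 2 lower (16% and 3.5% of all genes). The largest were Plcb2 (-0.70 ± 0.20, limma adjusted p = 0.0272), Rgs16 (0.64 ± 0.18), which shortens receptor signals, Pik3r5 (-0.59 ± 0.19) and Pik3cg (0.51 ± 0.12). With quantile normalization the list had 2 higher and 2 lower, Rgs16 no longer passing (0.44, adjusted p = 0.0694), and without perinate-tagged replicate 2 it had 4 higher and 3 lower. Pik3r5 did not pass with median centring (-0.50, adjusted p = 0.0729). Of 16 genes of chemotaxis and integrin activation, only Myo1g passed in the tagged comparison (0.50 ± 0.12), with and without perinate-tagged replicate 2. In thymus 8 were lower than in untagged spleen and 0 higher, where 14.3% of all genes were lower and 16.2% higher. The list median was -0.23 against 0.03 for all genes. The 8 included Coro1a (-0.74 ± 0.21), an actin regulator needed for T cell egress, Rasgrp2 (-0.70 ± 0.16), Rassf5 (-0.43 ± 0.07) and Apbb1ip (-0.41 ± 0.12), which act in integrin activation. That count was 5 with quantile normalization. Of the enzymes and transporters of sphingosine 1-phosphate and oxysterols, 0 of 5 tested passed in the tagged comparison, where 3656 genes had an unadjusted p under 0.05. In perinate thymus Hsd3b7 was lower (-0.40 ± 0.12, limma adjusted p = 0.0405), a call lost with quantile normalization and with median centring. Of the receptors' ligands, 2 were tested, and Ccl25 was higher in perinate thymus (0.42 ± 0.13, limma adjusted p = 0.0486) except with quantile normalization, where it did not pass.

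**Figure D3:**
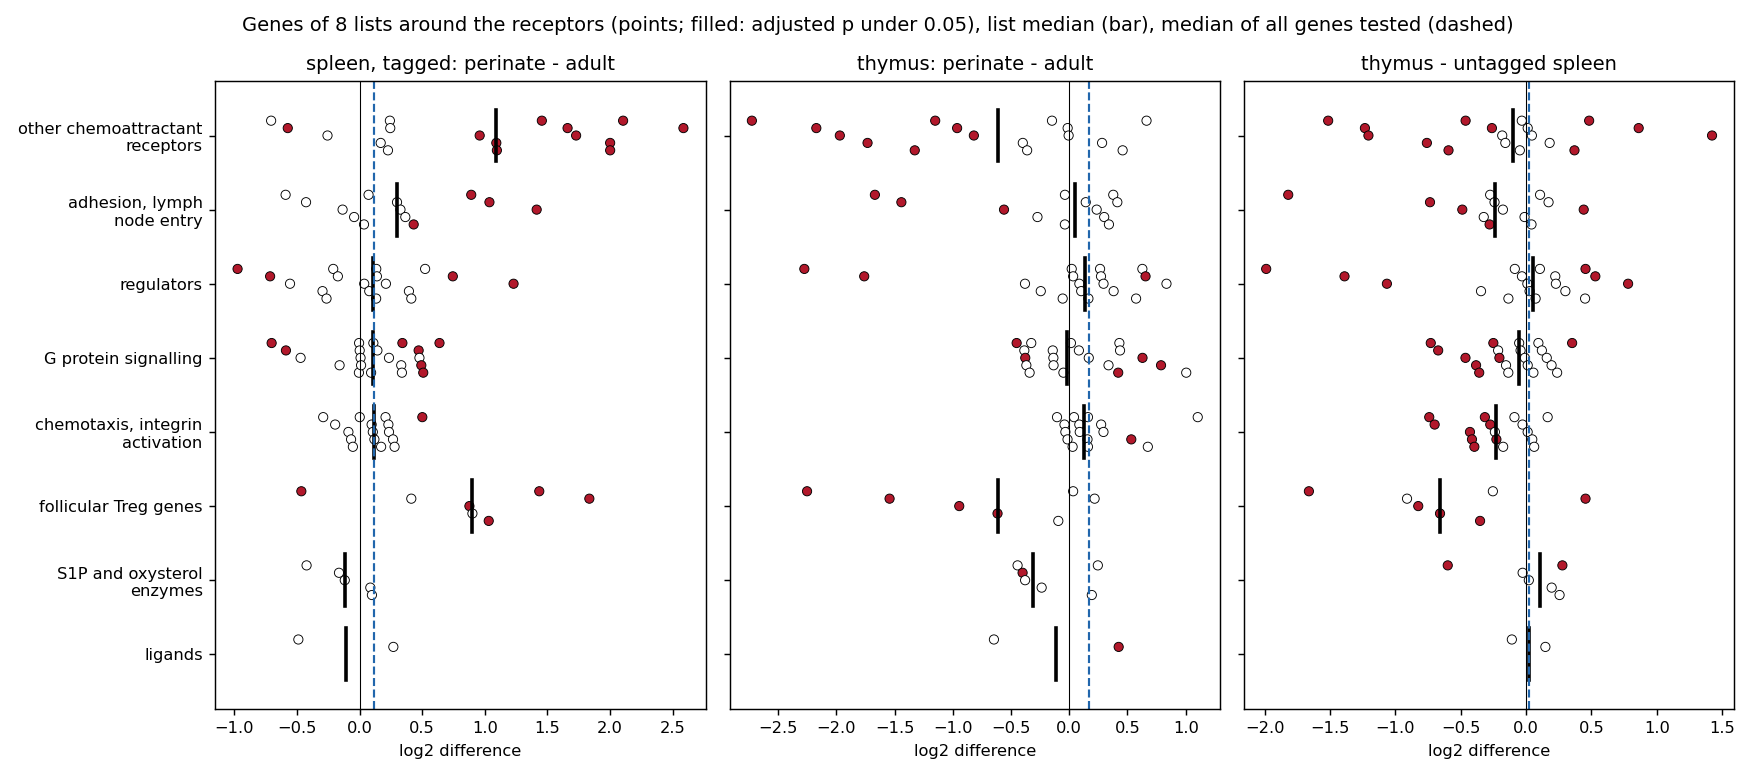
Log2 differences of the genes of 8 lists around the receptors in 3 comparisons (points, filled where the limma adjusted p was under 0.05), with the list median (bar) and the median of all genes tested (dashed line). The other chemoattractant receptors lie mostly to the right in the tagged comparison (median 1.09) and to the left in the thymus (median -0.61).

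A list of genes known from activated Tregs that recirculate to the thymus (Ccr6, Klrg1, Il1r2, Gzmb and Itgae) was read beside these values. Its summed linear intensity was 5665 to 6381 in perinate-tagged samples and 839.3 to 1044 in adult-tagged samples. By the test 3 of its 5 genes were higher in perinate-tagged cells, Gzmb (4.18 ± 0.45), Klrg1 (3.86 ± 0.47) and Itgae (1.74 ± 0.40), and Ccr6 was lower (-0.57 ± 0.14, limma adjusted p = 0.00931). Of all genes, 16% were called higher and 3.5% lower. Gzmb (11.50) and Klrg1 (10.81) had the highest mean levels of the list in perinate-tagged samples and weigh most in their sum. Il1r2 averaged 7.37 there, 6.46 in adult-tagged samples, and 8.45 (perinate) and 8.36 (adult) in untagged samples. The sum was 942.6 to 1158 in perinate thymus and 2471 to 3827 in adult thymus. All 5 genes were lower in perinate thymus by the test, where 5.84% of all genes were lower. In the untagged cells it was 948.5 and 1060 in the replicate 3 samples and 2125 to 2973 in replicates 4 and 5. Those replicate 3 samples were also the untagged samples with the highest Ccr9 and the lowest Cxcr4. Adult thymus samples, with higher sums than perinate thymus samples, had a mean Ccr9 of 9.49 against 10.20. For Cxcr4 the thymus means were 10.09 in adults and 8.41 in perinates. Among the tagged groups, perinate-tagged samples, with the higher sums, had a mean Ccr9 of 8.27 against 8.33 in adult-tagged samples. Their mean Cxcr4 was lower, at 9.14 against 9.51. No association with the sum was computed. The part of this list in the differences of Cxcr4, Ccr9 and Cxcr5 was not tested.

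**Figure D4:**
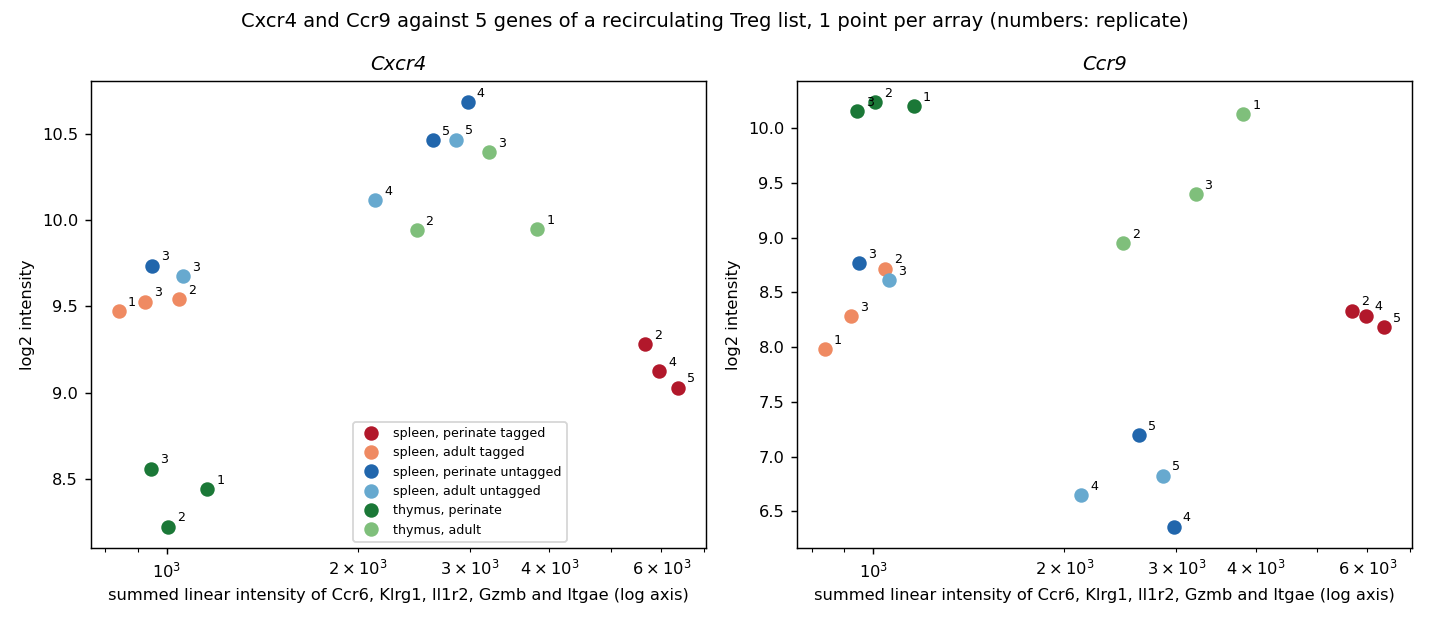
Log2 level of Cxcr4 (left) and Ccr9 (right) against the summed linear intensity of Ccr6, Klrg1, Il1r2, Gzmb and Itgae on a log axis, 1 point per array, numbered by replicate and coloured by group. The untagged replicate 3 samples lie with the adult-tagged samples at sums of 948.5 and 1060, away from untagged replicates 4 and 5. The perinate-tagged samples have the highest sums (5665 to 6381), at Cxcr4 levels of 9.03 to 9.28 and Ccr9 levels of 8.18 to 8.33.

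Markers of other cells were read beside the results. Of the B cell markers, 4 of 6 measured, Ms4a1 among them, were within the range of background readings (3.95 to 6.30) on average in every group. Cd79b was the only one tested, at 9.55 in perinate-tagged against 8.89 in adult-tagged samples (0.66 ± 0.14, limma adjusted p = 0.00476), and the summed list ran from 919.9 to 1087 against 712 to 791. Of 7 myeloid markers, Cd68 was the only one tested, at 7.96 against 7.42 (0.54 ± 0.16, limma adjusted p = 0.0276), and the summed list ran from 589 to 699 against 533 to 578. Of 5 thymic epithelium markers 2 were tested, and Epcam was higher, at 7.54 against 6.47 (1.07 ± 0.23, limma adjusted p = 0.00502), with summed lists of 529 to 629 against 526 to 567. The other, Krt8, averaged 7.20 against 7.55 and did not pass. In the untagged samples Epcam averaged 7.15 after perinate and 7.47 after adult treatment. The part of these 3 lists in the Ccr7 and Cxcr5 differences was not tested. Of the 8 immature thymocyte markers, Rag2 and Dntt were at background in all groups. Cd8a was 9.75 in perinate and 10.36 in adult thymus, against 6.52 to 6.83 in the spleen groups, and Cd24a was 9.30 and 8.56 against 6.02 to 6.53. The summed list ran from 2227 to 2684 in thymus and from 606 to 784 in spleen, and its part in the Ccr9 difference was not tested. The median of 51 small nucleolar RNA genes was 8.08 to 8.43 in perinate-tagged and 8.66 to 9.53 in untagged samples of the same treatment, beside the Ccr7, Cxcr4 and Cxcr5 differences of those groups, and its part was not tested either.

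The genes whose pattern over the 18 arrays was most like that of each receptor are given as a description, since the arrays share groups and tissues. For Ccr7 they were Rangrf (Pearson r = 0.926), St8sia1 (0.916) and Ntn4 (0.904) among 10289 genes, and for Cxcr5 Eloa (0.943), Lgmn (0.921) and S100a6 (0.915). For Cxcr4 they were Wls (0.948), Bmp7 (0.936) and Trim16 (0.910), and for Ccr9 Adcy6 (0.973), St3gal3 (0.972) and Tsc22d1 (0.960). For S1pr1 they were Fam78a (0.955), Kbtbd11 (0.945) and Trib2 (0.942), and for Gpr183 Cab39l (0.947), Rps21 (0.930) and Armc10 (0.926). Spearman's rho kept 8 of these 18 genes. Over the 12 spleen arrays the closest genes were Bcl7a to Ccr7 (0.952), Knstrn to Cxcr5 (0.973), Slc41a1 to Cxcr4 (0.982), Lpp to Ccr9 (0.976), Herc2 to S1pr1 (0.971) and Actr6 to Gpr183 (0.921). None of these was the gene closest over all 18 arrays. Among the receptors themselves, Cxcr4 and Ccr9 ran opposite over the 12 spleen arrays (Pearson r = -0.80, Spearman's rho = -0.48), as did Ccr7 and Cxcr5 (-0.75 and -0.66), while S1pr1 and Ccr9 ran together (0.78 and 0.73).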

How the data were processed

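Sorted Treg RNA of 18 samples in 6 groups of 3 was extracted with TriZol and hybridised as biotin-labelled cDNA to whole-transcript Affymetrix arrays (Mouse Gene 1.0 ST), per the labels' protocols. The authors deposited linear intensity values processed by RMA in Affymetrix Power Tools, per the submitters' processing notes; the genome build is not given in the sources used here. RMA normalizes between arrays and so limits what a shift of all genes can show. Intensities were converted to log2 with no pseudocount (all were above 1). Of 24922 probe sets, 21425 had 1 gene symbol in the platform annotation, 1399 several and 2098 none. The brightest probe set with 1 symbol, by its mean over the 18 arrays, stood for each of 19752 genes. The precision is limited by the number of arrays.

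Genes entered a fit when the mean log2 level of at least 1 of its groups was 7.052 or more, the median of all values. limma 3.58.1 in R 4.3.3 (lmFit, eBayes) was fitted to the 12 spleen arrays (10350 genes), the 6 thymus arrays (10650) or all 18 (10889, for contrasts across tissues and the order of levels). Figures were drawn in Python 3.11.15 with matplotlib 3.10.9. The fit was tested on simulated data. An exact permutation test of 3 against 3 cannot give a p below 0.1 and was not used.

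The text names the 6 receptors in every comparison, up to 4 called genes per list by size of difference, and the 3 genes closest in pattern to each receptor. It also names the Treg markers Foxp3, Il2ra and Ctla4. Klf2, Foxo1, Bcl6 and the marker genes were added after their values were seen. The receptors and the lists were chosen with earlier results of these data known. Background readings are those of 3 Y-linked genes on the 11 female arrays other than perinate-tagged replicate 2 and of Xist on the 6 male arrays.

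Whether equal replicate numbers pair samples was checked by correlating deviations from the group means across genes. For the untagged groups the same-number correlations were 0.622, 0.132 and 0.448. Replicates 4 and 5 also correlated across unlike numbers, at 0.277 and 0.29, above the 0.132 of the replicate 4 samples. Replicate 3 thus stood apart, and pairing by number beyond it is uncertain. This comes from the data, not from the labels. The main fits held no replicate block, which was run as an alternative. In the thymus the same-number correlations were -0.05, 0.067 and 0.119, and the tagged and untagged groups of the perinate treatment gave -0.106 and -0.001, so those share only a number. Alternatives covered normalization, centring, filters, probe sets, variance prior, array weights, the arrays fitted, array spread, the replicate block and leaving out each array.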

Additional observations from a re-analysis of the deposited data

Results flagged for a closer look

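The perinate minus adult difference of Ccr7 and Cxcr5 differed between tagged and untagged spleen Tregs by the interaction test: by -1.04 for Ccr7 and by 1.28 for Cxcr5 on the log2 scale. The same difference also differed between tagged spleen Tregs and thymus Tregs for 3 receptors, by -1.03 for Ccr7, 1.32 for Cxcr4 and 1.68 for Cxcr5. For Cxcr5 the signs were opposite, higher in perinate-tagged spleen (1.24) and lower on average in perinate thymus (-0.44, which did not pass its own test). For Cxcr4 both differences were negative, -0.37 in tagged spleen and -1.69 in thymus. Between spleen and thymus, sex, sorter, age and recorded tamoxifen treatment differ together with tissue and cannot be told apart.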

How the results depend on the processing

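Setting aside the left-out arrays, 451 values of the receptors kept their direction and side of the threshold, 18 came to pass it, 3 ceased to and 19 turned sign, none of the last having passed. For the interaction 1 receptor was called in place of 2 with the replicate block over 12 spleen arrays, and 3 with array weights. For the thymus 2 in place of 1 were called with array weights and 2 with a covariate for each array's interquartile range, and for spleen against thymus differences 5 in place of 3 with array weights. Smaller moves were 3 in place of 2 for the tagged comparison (array weights, its 2 groups alone), 2 (median centring, no filter) or 4 (array weights) in place of 3 for the tag after perinate treatment, and 5 (median centring, stricter filter, trended prior) or 6 (quantile normalization, array weights, interquartile range) in place of 4 between tissues. The array weights did not converge fully. With them the calls over all genes also rose in most comparisons. They went from 703 to 5085 for spleen against thymus differences and from 760 to 3867 for the tag after perinate treatment. Between tissues they went from 3318 to 5364 and for the interaction from 506 to 1077. In the thymus they fell from 2589 to 1566. Leaving out 1 array gave 2 to 2 receptors in the tagged comparison, 0 to 0 in the untagged, 2 to 2 for the interaction, 2 to 3 and 0 to 2 for tagged against untagged after perinate and adult treatment, 1 to 2 in the thymus, 4 to 5 between tissues, 3 to 3 for spleen against thymus and 1 to 5 neighbouring pairs. The last count was 3 with quantile normalization and 4 with median centring, both chosen after seeing the data; leaving out perinate-tagged replicate 2 gave 2, its replicate 4 gave 1, and adult thymus replicate 2 or perinate untagged replicate 3 gave 5. Signs turned with quantile normalization for Gpr183 in the tagged (-0.0116), thymus (-0.0948) and spleen against thymus (0.0832) contrasts and Ccr7 in the thymus (-0.17). With median centring they turned for Ccr9 in the tagged contrast (0.0291) and S1pr1 for the tag after perinate treatment (0.0112). With array weights they turned for Ccr9 untagged (-0.38) and interaction (0.35), S1pr1 (0.0886), Ccr7 in the thymus (-0.0037) and Gpr183 between spleen and thymus differences (0.0589). With the interquartile range they turned for Ccr9 tagged (0.0219), Ccr7 in the thymus (-0.31) and Gpr183 between spleen and thymus differences (0.0344). With the replicate block over 12 arrays they turned for Gpr183 (-0.0092) and Ccr9 (0.69) tagged, Ccr9 interaction (0.61) and S1pr1 after perinate treatment (0.0338), and with the block on 2 groups for S1pr1 (0.14). The block changed no other call over 12 arrays. On the 2 perinate treatment groups, which share only numbers, it gave 4 receptors in place of 3, with 3188 of 9946 genes called against 760 of 10350. The cause was not tested. Leave-one-out ranges that crossed 0 were -0.0053 to 0.27 (Gpr183) and -0.23 to 0.14 (Ccr9) tagged; -0.0069 to 0.23 (Ccr7), -0.11 to 0.0097 (Gpr183), -0.59 to 0.70 (Ccr9) and -0.19 to 0.064 (Cxcr5) untagged; -0.76 to 0.53 (Ccr9 interaction); -0.11 to 0.0924 (S1pr1, tag after perinate treatment); -0.0726 to 0.24 (Ccr7, thymus); and -0.17 to 0.11 (Gpr183, spleen against thymus). Over all genes, the tagged calls (2020, 82.1% higher in perinates) were 1835 with quantile normalization (60.8% higher), 2180 with median centring (91.9%), 5904 with array weights, 3371 with the 2 groups alone, 376 with the interquartile range, 655 with the block and 906 to 2511 without 1 array. Quantile normalization moved the median of all genes from 0.12 to -0.01 there and from 0.17 to 0.02 in the thymus, where 76% of 2589 calls were higher in perinates, 55.8% with quantile normalization and 44.7% with the interquartile range.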
